A study of Homo sapiens with 9 samples.

Results

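The 10 genes described here encode PARP enzymes, single-strand break repair factors and the core of nonhomologous end joining: PARP1, PARP2, XRCC1, LIG3, PRKDC, XRCC5, XRCC6, XRCC4, LIG4 and NHEJ1. They were taken by symbol from the 22587 genes of the deposited expression table, and all 10 were found there and passed the filter on low values. The cells were HepG2 (Hep G2 in the labels), an established human liver tumor line grown in high-glucose DMEM with fetal bovine serum, and no genetic change is listed for any group. RNA was sequenced in 3 groups of 3 libraries: cells with glutamine (Gln) added, cells after 12 h without Gln and cells after 24 h without it. The labels of the samples list GlutaMAX, a dipeptide source of Gln, for the Gln-added cultures, whereas the treatment protocol places it in the Gln-free medium of the deprivation experiment. Nothing in the labels says that the libraries of a group came from separate cultures, so p-values measure the spread between these libraries, which may be technical.

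PARP1 and PARP2 bind DNA nicks and build poly(ADP-ribose) (PAR) chains that attract XRCC1, a scaffold that brings DNA ligase III (LIG3) to the gap. In nonhomologous end joining, the Ku heterodimer of XRCC6 and XRCC5 clasps a broken end and recruits the kinase encoded by PRKDC (DNA-PKcs), and LIG4 with its partner XRCC4 and the factor XLF (NHEJ1) seals the break. Unlike homologous recombination (HR), which is tied to DNA replication, end joining can act throughout the cell cycle.

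The table gives FPKM, which scales fragments to gene length and library depth. Levels compared between genes therefore rest on the lengths used, which by recovery from the FPKM steps ran from 2052 bases for XRCC1 to 13459 for PRKDC. For example, NHEJ1 (8081 bases) had 1127 to 1361 fragments per library and XRCC1 748 to 1044, yet XRCC1 had the higher FPKM. Between 29621270 and 36261546 fragments on genes lay behind a library. All 10 liver-lineage markers were expressed, ALB at 3230 to 3908 FPKM, and COL1A1, COL1A2, DCN and VIM stayed at or below 0.0171 FPKM. Of the 8 markers of other cell types in the table, VWF and PECAM1 reached at most 0.052 and 0.343 FPKM, while CD68 (21.2 to 36.3 FPKM) and ACTA2 (21.5 to 36.5 FPKM) were expressed, and both had lower means in the deprived groups. Their part in the results below was not tested.

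With Gln added, the levels of the 10 genes spanned 161-fold. XRCC6 was the highest at 244 ± 5.12 FPKM (SD, n = 3), followed by XRCC5 at 156 ± 2.83, PARP1 at 58.4 ± 0.60, PRKDC at 37.0 ± 0.20, PARP2 at 28.5 ± 0.76 and XRCC1 at 12.0 ± 0.55. NHEJ1 (4.38 ± 0.28) and LIG3 (4.34 ± 0.30) overlapped in range, and XRCC4 (2.71 ± 0.18) and LIG4 (1.52 ± 0.0097) came last. Every other pair of neighbours in this order was apart in all 3 libraries. Under deprivation the order changed in 2 places. LIG4 stood above XRCC4 at both times, and PRKDC and PARP1 overlapped at 12 h, at 33.2 ± 0.40 and 33.2 ± 0.30 FPKM.

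At 12 h, 8 of the 10 genes passed limma's test at a Benjamini-Hochberg adjusted p under 0.05, against 60.2% of the 11880 genes tested. Of these, 7 were lower (31.0% of all tested genes were) and 1, LIG4, was higher (29.1%). At 24 h, 7 passed, against 64.7% of all genes, 6 of them lower (31.7%) and 1 higher (33.0%). PARP1, PARP2 and XRCC4 were lower by at least 0.5 on the log2 scale at both times, as were 10.8% of all genes at 12 h and 12.4% at 24 h. LIG4 was higher by that much at 24 h (12.6% of all genes), and at 12 h it lay just under, at 0.497 (9.65% of all genes passed there). The median log2 fold change of the 10 genes was -0.24 at 12 h and -0.33 at 24 h, beside -0.02 and 0.01 over all genes tested. Fold changes are of FPKM + 0.1, both comparisons share the 3 Gln-added libraries, and in bulk RNA fewer cells of a kind cannot be told apart from less RNA per cell.

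PARP1 (chr1:226360210-226408154, minus strand in GENCODE on GRCh38), the main producer of PAR at DNA breaks, had the lowest log2 fold change of the 10 genes at 12 h. It stood at 58.8, 57.7 and 58.7 FPKM with Gln added, at 33.5, 33.0 and 33.1 FPKM at 12 h, and at 35.5, 33.4 and 34.8 FPKM at 24 h. No deprived library came near the Gln-added ones, while the libraries of the deprived times overlapped. The mean fell by 43.2% at 12 h (log2 fold change -0.81, SE 0.034, adjusted p = 1.71e-08) and fell by 40.9% at 24 h (-0.76, adjusted p = 1.73e-08). Among all tested genes, 3.75% had a lower fold change at 12 h. Between 12 h and 24 h the difference was 0.06 (95% interval -0.02 to 0.13, adjusted p = 0.280).

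PARP2 (chr14:20343615-20357904, plus strand), its less abundant relative, moved by a like amount. Its levels were 28.4, 27.9 and 29.4 FPKM with Gln added, 17.3, 17.8 and 17.1 FPKM at 12 h, and 17.4, 17.1 and 15.9 FPKM at 24 h. Again all 6 deprived libraries lay below the 3 with Gln, with no separation of the deprived times. Its log2 fold change came to -0.71 after 12 h (SE 0.044, adjusted p = 2.75e-07) and -0.76 after 24 h (adjusted p = 1.13e-07), and -0.05 between the times (95% interval -0.15 to 0.05, adjusted p = 0.475). Within a library, PARP2 stood at 0.483 to 0.5003 of PARP1 with Gln added, 0.514 to 0.539 at 12 h and 0.457 to 0.513 at 24 h. The ratio was thus higher at 12 h in every library, at the smallest p that 3 libraries against 3 allow (exact permutation test, p = 0.1, adjusted p = 0.138 over 18 ratio comparisons), and at 24 h the groups overlapped (exact p = 1.0).

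The study concerns G-quadruplex DNA (G4), four-stranded structures formed by runs of guanine, at the promoters of HR genes, so the letters of such a pattern were looked for in the promoters of these genes. The pattern was 4 runs of at least 3 G with loops of 1 to 7 bases on either strand, in windows of 250 bases before and 50 after each RefSeq start (GRCh38.p14). The paper's own motif search at BRCA1 and RAD51AP1 accepted shorter runs of G and longer loops. Motifs of that looser kind were not looked for here, so a promoter without the pattern may still hold one. Windows were matched for 8 of the 10 genes, that is all but XRCC5 and PRKDC. The pattern was found for 3 of the 8, XRCC1, LIG4 and NHEJ1, and in no window of PARP1, PARP2, LIG3, XRCC6 or XRCC4. It was present in 25.0% of all 35116 windows and in 40.3% of the tested genes that had one. The stretches before the first annotated exon of PARP1 (chr1:226408155-226408343, minus strand) and PARP2 (chr14:20343385-20343614, plus strand) are shown because these genes fell most among the PARP and nick-repair members. Capitals mark runs of 3 or more G or C, of which PARP1 holds 7 of each and PARP2 holds 5 of G and 8 of C, with no match to the pattern.
PARP1 upstream: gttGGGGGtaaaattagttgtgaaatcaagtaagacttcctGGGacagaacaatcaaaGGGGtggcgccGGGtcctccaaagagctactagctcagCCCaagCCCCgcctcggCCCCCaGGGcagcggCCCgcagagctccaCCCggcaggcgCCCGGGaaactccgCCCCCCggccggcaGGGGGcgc
PARP2 upstream: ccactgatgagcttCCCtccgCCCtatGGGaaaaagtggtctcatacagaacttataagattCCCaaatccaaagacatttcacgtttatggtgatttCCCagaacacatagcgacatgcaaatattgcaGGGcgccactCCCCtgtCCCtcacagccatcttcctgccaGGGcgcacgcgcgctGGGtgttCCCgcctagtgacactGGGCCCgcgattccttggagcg

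XRCC1 (chr19:43543311-43580473, minus strand), the scaffold that PAR attracts, did not pass the test against Gln added at either time. It stood at 11.4, 12.3 and 12.4 FPKM with Gln added, 12.8, 14.03 and 12.7 FPKM at 12 h, and 11.9, 10.96 and 11.8 FPKM at 24 h. The 3 libraries of 12 h lay above all others, by a margin within the spread of a group. On the log2 scale it differed from Gln added by 0.13 after 12 h (SE 0.056, adjusted p = 0.0682) and -0.05 after 24 h (adjusted p = 0.416). After rescaling of the libraries to the same total the adjusted p at 12 h was 0.0262, and with median-ratio scaling it was 0.0440. From 12 h to 24 h XRCC1 fell by 0.18 (adjusted p = 0.0426), a call lost under 12 of 19 alternatives. GENCODE places exons of other genes over 20.04% of its exonic bases on the opposite strand and 8.16% on the same strand. The pattern of guanine runs lay across its RefSeq start, on the opposite strand, at chr19:43575505-43575530. All 26 bases of this match lie in annotated exons of XRCC1, downstream of its outermost start in GENCODE. The match is shown with its runs in capitals because XRCC1 is among the 3 genes that hold one.
XRCC1 match: GGGGtccgaGGGGcaGGGagagtGGG

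LIG3 (chr17:34980512-35009743, plus strand), the ligase that XRCC1 carries, passed the test at 12 h and not at 24 h, and did not pass it between the times (log2 difference 0.08, adjusted p = 0.501). Its levels were 4.68, 4.09 and 4.26 FPKM with Gln added, 3.40, 3.93 and 3.85 FPKM at 12 h, and 3.81, 4.11 and 3.89 FPKM at 24 h. The 12 h libraries lay below the Gln-added ones, the nearest pair at 3.93 and 4.09 FPKM, and those of 24 h overlapped with them. Its log2 fold change came to -0.22 after 12 h (SE 0.074, adjusted p = 0.0266) and -0.14 at 24 h (adjusted p = 0.125). The 12 h call was lost without Gln-added replicate 1 (adjusted p = 0.111) and without 12 h replicate 1 (adjusted p = 0.106). Exons of RFFL and CCT6B overlap 30.5% of its exonic bases on the opposite strand. RFFL rose from 2.32 to 4.28 FPKM at 12 h, and whether the fragments were counted by strand is not given in the sources used here. The ratio of XRCC1 to LIG3 was 2.43 to 3.00 with Gln added, 3.30 to 3.75 at 12 h and 2.67 to 3.12 at 24 h. It was 1.28-fold higher at 12 h with no overlap (exact permutation test, p = 0.1, adjusted p = 0.138), and at 24 h the ranges overlapped (p = 0.5).

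XRCC6 and XRCC5, the subunits of Ku, fell at 12 h and stood lower again at 24 h. XRCC6 was at 242.9, 239.2 and 249.3 FPKM with Gln added, 201.5, 204.0 and 197.0 FPKM at 12 h, and 175.8, 172.2 and 174.7 FPKM at 24 h. XRCC5 (chr2:216107464-216206303, plus strand) was at 155.6, 153.6 and 159.2 FPKM with Gln added, 131.2, 126.7 and 132.0 FPKM at 12 h, and 119.9, 115.9 and 120.4 FPKM at 24 h. For both genes the 3 groups were fully apart, in the order Gln added, 12 h, 24 h. XRCC6 had log2 fold changes of -0.28 at 12 h (SE 0.031, adjusted p = 2.01e-05) and -0.48 at 24 h (adjusted p = 2.20e-07). XRCC5 had -0.26 (SE 0.032, adjusted p = 4.68e-05) and -0.39 (adjusted p = 1.66e-06). In percent of the Gln-added mean, XRCC6 fell by 28.5% and XRCC5 fell by 23.9% at 24 h. GENCODE lists 5 pseudogenes named for XRCC6 and 2 for PARP1, none of them in the table, and how reads shared with them were counted is not given in the sources used here.

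PRKDC, whose product is the large kinase that Ku recruits, had smaller fold changes than the Ku genes, with a tight spread. It was at 36.8, 37.0 and 37.2 FPKM with Gln added, 32.8, 33.5 and 33.4 FPKM at 12 h, and 30.8, 31.4 and 30.8 FPKM at 24 h. Its 3 groups were apart as well. PRKDC fell by 0.16 on the log2 scale by 12 h (SE 0.031, adjusted p = 0.00133) and fell by 0.26 by 24 h (adjusted p = 3.19e-05). In percent it fell by 10.3% and fell by 16.4%, and these values rested on 13065 to 17831 fragments per library.

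Within a library, XRCC5 stood at 0.638 to 0.642 of XRCC6 with Gln added, 0.621 to 0.670 at 12 h and 0.673 to 0.689 at 24 h. The Ku subunits thus overlapped in ratio at 12 h (exact permutation test, p = 0.7), and at 24 h the ratio was 1.06-fold higher with no overlap (p = 0.1, adjusted p = 0.138). PRKDC stood at 0.149 to 0.155 of XRCC6 with Gln added, 0.163 to 0.170 at 12 h and 0.175 to 0.182 at 24 h. This ratio was higher at each later time with no overlap, 1.09-fold at 12 h and 1.17-fold at 24 h over Gln added (exact permutation tests, p = 0.1, adjusted p = 0.138).

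XRCC4 and LIG4 form the ligation complex, and they moved in opposite directions. XRCC4 (chr5:83077498-83353787, plus strand), the partner of the ligase, was at 2.52, 2.86 and 2.77 FPKM with Gln added, 1.43, 1.63 and 1.87 FPKM at 12 h, and 1.46, 1.43 and 1.91 FPKM at 24 h. LIG4, the ligase itself, was at 1.51, 1.51 and 1.53 FPKM with Gln added, 2.35, 2.02 and 2.19 FPKM at 12 h, and 2.43, 2.52 and 2.54 FPKM at 24 h. All 6 deprived libraries lay below the Gln-added ones for XRCC4 and above them for LIG4. XRCC4 fell by 0.70 on the log2 scale at 12 h (SE 0.13, adjusted p = 0.000732) and by 0.74 at 24 h (adjusted p = 0.000404). LIG4 rose by 0.50 at 12 h (SE 0.076, adjusted p = 0.000233) and by 0.68 at 24 h (adjusted p = 1.80e-05), when 92.6% of tested genes had a lower fold change. These are low genes, with 145 to 341 fragments per library for XRCC4 and 246 to 412 for LIG4. With a pseudocount of 1 the changes were -0.49 and -0.52 for XRCC4 and 0.34 and 0.47 for LIG4.

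The ratio of XRCC4 to LIG4 was 1.66, 1.89 and 1.81 with Gln added, 0.609, 0.806 and 0.853 at 12 h, and 0.598, 0.565 and 0.750 at 24 h. XRCC4 was therefore the higher of the pair in each Gln-added library and the lower in each deprived one. The ratio stood at 0.42 of its Gln-added value at 12 h and 0.35 at 24 h, each at the smallest p possible (exact permutation test, p = 0.1, adjusted p = 0.138). Between 12 h and 24 h the ratios overlapped (exact permutation test, p = 0.2). Of the 6 pairs of partners compared, this one had the largest difference at both times.

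NHEJ1 (chr2:219069355-219160869, minus strand), which encodes XLF and works beside XRCC4, did not pass the test in any comparison. It was at 4.10, 4.66 and 4.38 FPKM with Gln added, 4.71, 4.64 and 4.52 FPKM at 12 h, and 4.33, 4.43 and 4.37 FPKM at 24 h. The deprived libraries overlapped with the Gln-added ones at both times. Its log2 fold change came to 0.08 after 12 h (95% interval -0.05 to 0.21, adjusted p = 0.267) and 0.00090 at 24 h (-0.13 to 0.13, adjusted p = 0.990). The ratio of NHEJ1 to XRCC4 was 1.58 to 1.63 with Gln added, 2.42 to 3.29 at 12 h and 2.30 to 3.11 at 24 h, with no overlap between Gln added and either time (exact permutation tests, p = 0.1, adjusted p = 0.138). In GENCODE, 19.5% of the exonic bases of NHEJ1 are shared with another gene on the same strand.

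**Figure D1:**
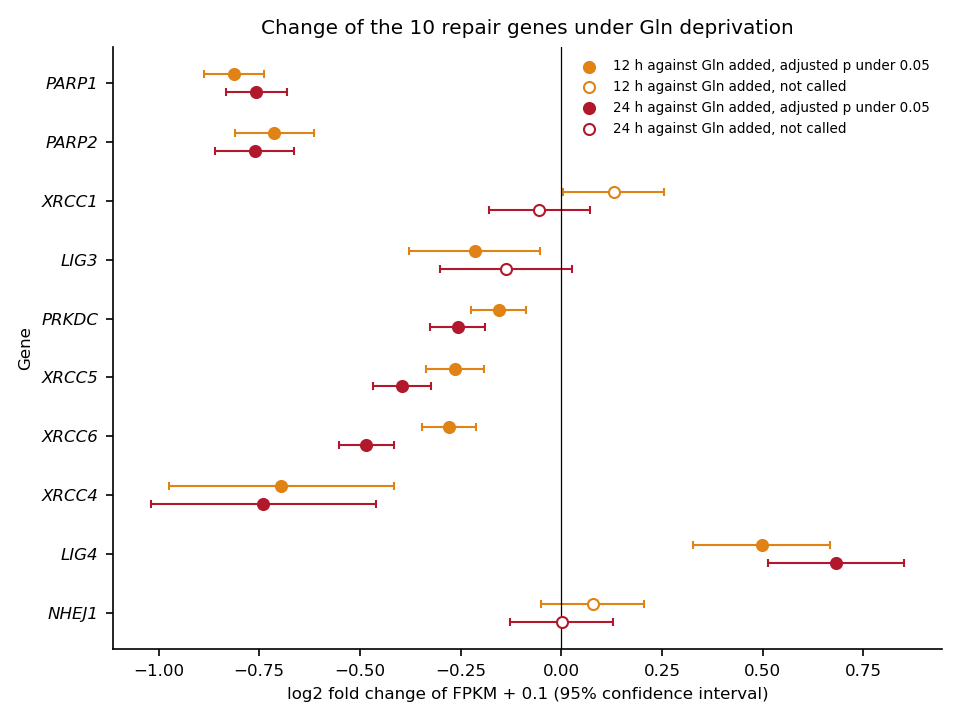
Log2 fold change of each gene (x axis, FPKM + 0.1) at 12 h and 24 h against Gln added, with 95% confidence intervals from limma. Filled points passed an adjusted p of 0.05. PARP1, PARP2 and XRCC4 lie between -0.70 and -0.81, the Ku genes and PRKDC between -0.16 and -0.48, and LIG4 at 0.50 and 0.68.

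**Figure D2:**
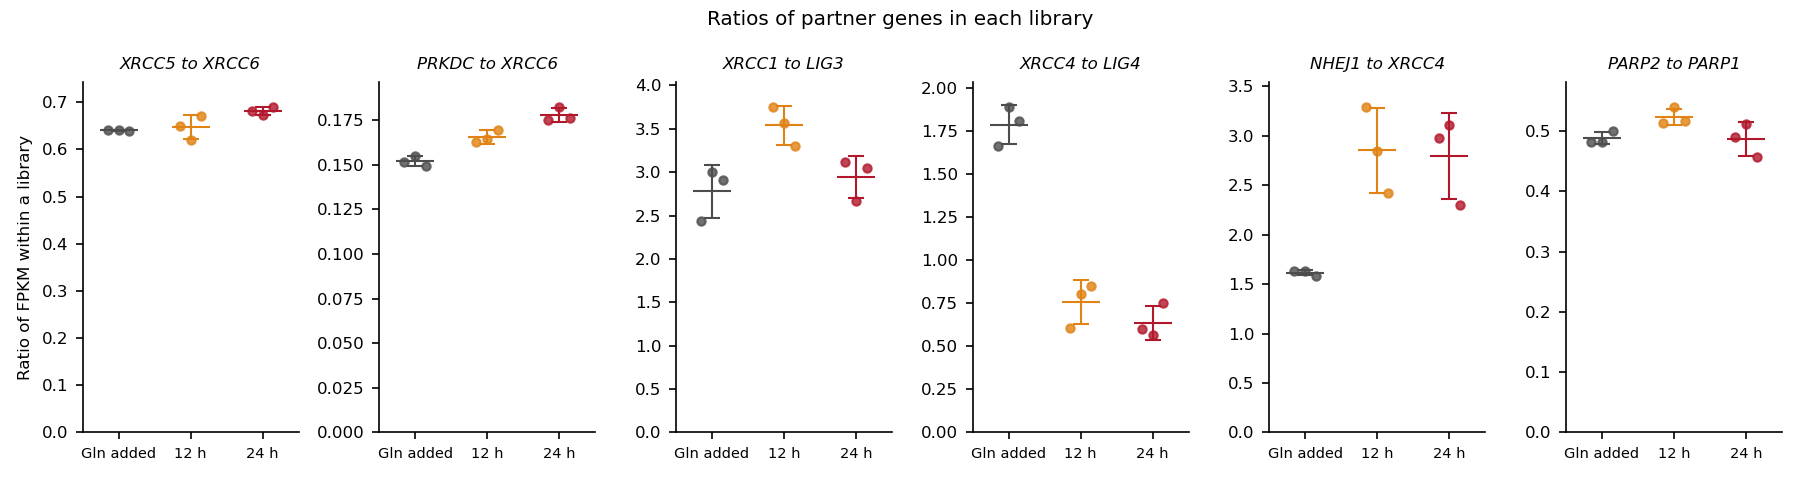
Ratio of the FPKM of partner genes within a library (y axes, from 0) in the 3 groups. Points are libraries, and bars give the mean ± SD of 3. The ratio of XRCC4 to LIG4 lies between 1.66 and 1.89 with Gln added and between 0.565 and 0.853 in the deprived libraries.

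The sequences of the ligation genes are shown because XRCC4 and LIG4 diverged. The stretches before the first annotated exon were chr5:83077297-83077497 on the plus strand for XRCC4 and chr13:108218369-108218599 on the minus strand for LIG4, with runs of 3 or more G or C in capitals. Neither stretch held the pattern of 4 guanine runs. LIG4 has 5 RefSeq windows, and 2 of them shared 1 match on the strand of the gene at chr13:108215427-108215458, outside its annotated exons and downstream of its outermost start. NHEJ1 has 2 windows with 3 matches in all, of which those at chr2:219160568-219160586 and chr2:219160875-219160896 also lay outside exons. The first of these is shown, as the only one on the strand of the gene. Only the runs of G are in capitals in the matches.
XRCC4 upstream: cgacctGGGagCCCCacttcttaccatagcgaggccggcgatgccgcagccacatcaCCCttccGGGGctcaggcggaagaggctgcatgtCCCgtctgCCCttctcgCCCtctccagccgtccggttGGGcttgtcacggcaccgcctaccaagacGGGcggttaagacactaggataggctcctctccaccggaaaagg
LIG4 upstream: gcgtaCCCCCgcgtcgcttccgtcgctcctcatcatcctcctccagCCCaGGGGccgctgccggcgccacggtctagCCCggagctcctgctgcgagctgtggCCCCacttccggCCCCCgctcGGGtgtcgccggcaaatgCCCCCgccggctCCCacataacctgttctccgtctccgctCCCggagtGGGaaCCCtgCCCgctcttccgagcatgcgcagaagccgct
LIG4 match: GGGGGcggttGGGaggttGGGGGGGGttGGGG
NHEJ1 match: GGGGGaGGGGtGGGcGGGG

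The E2F letters TTTCCCGC, TTTGGCGC, TTTCGCGC and TTTGCCGC were searched on both strands of the same windows. XRCC6 alone of the 8 genes held one of them, TTTGGCGC on the opposite strand at chr22:41621337-41621344, within the 50 bases after the start. Of all windows, 3.31% held any of these words, as did 6.84% of the tested genes with a window.

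Neighbours that start close by on the other strand were set beside the members. MCM4, a subunit of the replicative helicase, starts 7 bases from PRKDC in GENCODE (PRKDC at chr8:47773111-47960178). MCM4 fell from 56.3 ± 0.72 to 25.8 ± 0.56 FPKM at 12 h and 23.6 ± 0.50 FPKM at 24 h (log2 fold changes -1.12 and -1.25, SE 0.034, adjusted p = 1.77e-09 and 6.10e-10), beside -0.16 and -0.26 for PRKDC. DESI1, a neighbour in the head-to-head arrangement, starts 120 bases from XRCC6 (chr22:41621163-41664048) and rose by 0.31 and 0.28 (SE 0.056, adjusted p = 0.000752 and 0.00123), whereas XRCC6 fell. ABHD13 starts 24 bases from LIG4 (chr13:108207439-108218368), and its differences of 0.10 and 0.22 did not pass the test (adjusted p = 0.546 and 0.195). These neighbours were picked by distance, up to 1000 bases between starts, after the values were seen, and the differences between neighbours were not tested. No neighbour of this kind with a row in the table was found for the other 7 genes.

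Between 12 h and 24 h of deprivation, 4 of the 10 genes passed the test, against 20.1% of all genes, and all 4 were lower at 24 h (10.5% of all genes were, and 9.57% were higher). XRCC6 fell by 0.20 (SE 0.031, adjusted p = 0.00112), XRCC5 fell by 0.13 (adjusted p = 0.0178), PRKDC fell by 0.10 (adjusted p = 0.0433) and XRCC1 fell by 0.18. The XRCC6 call held under all 19 alternatives. The count fell to 1, XRCC6, without 12 h replicate 1, and to 2 without 12 h replicate 2, 24 h replicate 2 or 3, or Gln-added replicate 2 or 3. LIG4 was higher at 24 h in every library, by 0.19, without passing the test (95% interval 0.02 to 0.35, adjusted p = 0.115). The direction of calls over all genes depended on scaling here: 47.7% of the genes called were higher at 24 h as deposited, 54.3% after rescaling to the same total and 33.4% with median-ratio scaling.

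The other genes of these pathways, of which 64 of 68 in the table could be tested, went in both directions. At 12 h 24 were lower and 7 higher, so 48.4% were called, against 60.2% of all genes tested. At 24 h 27 were lower and 8 higher, so 54.7% were called, against 64.7% of all genes. The lower ones were 37.5% and 42.2%, against 31.0% and 31.7% of all genes, and 29.1% and 33.0% of all genes were higher. Their log2 fold changes had a median of -0.09 at 12 h and -0.08 at 24 h, beside -0.02 and 0.01 over all genes. Between 12 h and 24 h 12 were lower and 1 higher, so 20.3% were called, against 20.1% of all genes. The lower ones were 18.8%, against 10.5% of all genes, and 9.57% of all genes were higher. This count of 13 dropped to 6 without 12 h replicate 1 or without 24 h replicate 3.

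Genes of PAR turnover and other PARPs went both ways, with 5 of 17 lower and 4 higher at 12 h, and 2 lower and 5 higher at 24 h. The shares called were 52.9% and 41.2%, against 60.2% and 64.7% of all genes. The lower ones were 29.4% and 11.8%, against 31.0% and 31.7% of all genes, and 29.1% and 33.0% of all genes were higher. HPF1, the cofactor that directs PARP1 and PARP2 to serine, ranged over 7.18 to 7.83 FPKM with Gln added, 4.01 to 5.41 FPKM at 12 h and 4.02 to 4.27 FPKM at 24 h. HPF1 had 164 to 340 fragments per library. Its log2 fold changes of -0.70 (adjusted p = 7.91e-05) and -0.86 (adjusted p = 1.36e-05) stood beside -0.81 and -0.76 for PARP1 and -0.71 and -0.76 for PARP2, and differences between these genes were not tested. TNKS, the tankyrase that modifies telomere and axin proteins, rose by 0.30 and 0.45 (SE 0.047, adjusted p = 0.000276 and 1.19e-05). MACROD1, a hydrolase of ADP-ribose marks, fell by 0.27 and 0.40 (adjusted p = 0.0110 and 0.000885).

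Among the partners in base excision and single-strand break repair, 10 of 21 were lower and 1 higher at 12 h, and 11 lower and 1 higher at 24 h. These were 52.4% and 57.1% of the list, against 60.2% and 64.7% of all genes, and the lower ones were 47.6% and 52.4%, against 31.0% and 31.7%. The 3 genes named here were picked for the largest changes at 24 h among those of the list that qualified, and all 3 fell. Their fold changes were lower than those of any of the 10 members, which that choice favours, and the difference was not tested. Of the 21 genes, 10 were not called at 12 h and 9 at 24 h. UNG, the glycosylase that removes uracil from DNA, ranged over 43.2 to 44.1 FPKM with Gln added, 19.3 to 21.8 FPKM at 12 h and 15.9 to 18.2 FPKM at 24 h (-1.09 and -1.33, adjusted p = 1.11e-07 and 1.64e-08). LIG1, the ligase of Okazaki fragments and long-patch repair, changed by -1.02 and -1.39 (SE 0.049, adjusted p = 4.73e-08 and 3.10e-09), beside -0.22 and -0.14 for LIG3. NEIL3, a glycosylase of oxidised bases found in dividing cells, changed by -0.9995 and -1.77 (SE 0.15, adjusted p = 0.000184 and 1.88e-06). NEIL3 had 72 to 346 fragments per library.

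Of the 7 tested end-joining partners, 1 was lower and 1 higher at both times, a share called of 28.6%, against 60.2% and 64.7% of all genes. PAXX, an XRCC4-like factor that binds Ku, ranged over 23.2 to 23.6 FPKM with Gln added, 15.2 to 15.3 FPKM at 12 h and 13.9 to 14.7 FPKM at 24 h (-0.61 and -0.71, SE 0.037, adjusted p = 2.34e-07 and 4.75e-08). POLL, a gap-filling polymerase, rose by 0.46 and 0.39 (SE 0.074, adjusted p = 0.000339 and 0.000854). The other 5 did not pass the test at either time.

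In double-strand break sensing and the 53BP1 axis, 7 of 15 genes were lower and 1 higher at 12 h, and 10 lower and 1 higher at 24 h. The shares called were 53.3% and 73.3%, against 60.2% and 64.7% of all genes. The lower ones were 46.7% and 66.7%, against 31.0% and 31.7%. H2AX, the histone variant that is phosphorylated around breaks, ranged over 71.0 to 74.7 FPKM with Gln added, 38.5 to 47.0 FPKM at 12 h and 27.2 to 31.5 FPKM at 24 h (-0.76 and -1.32, adjusted p = 7.30e-06 and 8.13e-08). MRE11, a nuclease of the complex that senses ends, changed by -0.44 and -0.46 (adjusted p = 0.00186 and 0.00109). SHLD3, a shieldin subunit that protects ends from resection, rose by 0.40 and 0.63 (adjusted p = 0.00105 and 3.96e-05). SHLD3 had only 139 to 242 fragments per library, and TRAPPC13 overlaps 4.6% of its exonic bases on the same strand. Of 4 genes of alternative end joining, 1 was lower at 12 h and 3 at 24 h (31.0% and 31.7% of all genes were). POLQ, its polymerase theta, changed by -0.74 and -1.01 (SE 0.072, adjusted p = 8.65e-06 and 5.71e-07).

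HR and replication genes are given as context, by counts. Of 21 HR genes, 18 were lower at each time (85.7%, against 31.0% and 31.7% of all genes) and 3 were not called, and the medians were -0.60 and -0.84. All 30 replication genes tested were lower at 12 h and at 24 h, and their medians were -0.79 and -0.95. The medians of the 10 members (-0.24 and -0.33) lay between those of the HR genes and of all genes tested, and the lists were not tested against each other.

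**Figure D3:**
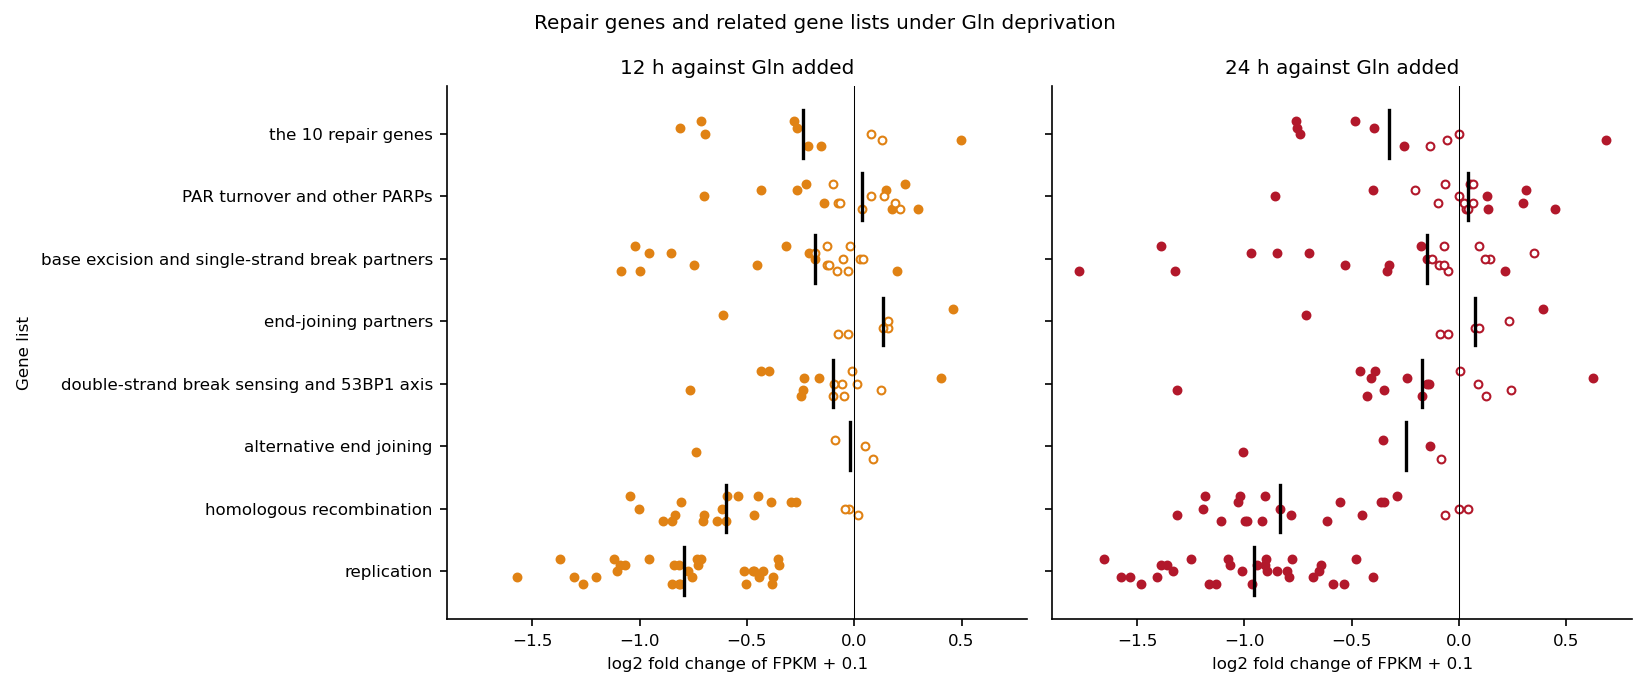
Log2 fold change (x axes, FPKM + 0.1) of the 10 repair genes and of 7 related gene lists at 12 h and 24 h against Gln added. Points are genes, filled where the adjusted p was under 0.05, and vertical bars are medians. The 30 replication genes all lie to the left of 0, whereas the 10 repair genes span -0.81 to 0.50 at 12 h and -0.76 to 0.68 at 24 h.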

How the data were processed

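RNA-seq of 9 HepG2 libraries, 3 in each of 3 groups, was analysed. Per the methods, STAR and GRCh38 were used for alignment, and the submitters' processing notes also name HTSeq and R 3.2.0. Methods and labels name different library kits, and whether strand was used in counting is not given in the sources used here. The authors deposited FPKM for 22587 genes, which are not counts. Therefore limma 3.58.1 in R 4.3.3 (eBayes with a trend) was fitted to log2(FPKM + 0.1) for the 11880 genes that averaged at least 0.5 FPKM, using 1 model for the 3 groups and Benjamini-Hochberg adjustment over all of these genes. Calls were made at an adjusted p under 0.05. Fold changes of low genes come out too small on this scale.

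Whole fragments could be recovered from the FPKM steps for 100% of genes, and they gave the depth. This recovery was tested on simulated fragments. Each pair of replicates differed beyond sampling noise. Partner ratios were compared by two-sided exact permutation tests (smallest p = 0.1). The members and the gene lists were chosen with earlier results of these data known. In each pathway list, the genes named are the 3 or fewer with the largest change at 24 h among those called at both times, averaging at least 1 FPKM and without overlap with Gln added. Context lists are given by counts. Positions come from GENCODE 44 and promoters from RefSeq (GRCh38.p14). DNTT has no row in the table, and PARP6, PARP8, MACROD2 and APLF were too low to test.

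The alternatives were pseudocounts of 1 and 0.01, no filter or a minimum of 1 FPKM, libraries rescaled to an equal total, median-ratio scaling, fits of the compared groups alone, a replicate block, eBayes with no trend, voom on the fragments and leaving out each library. Figures used matplotlib 3.10.9 and Python 3.11.15.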

Additional observations from a re-analysis of the deposited data

Results flagged for a closer look

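The change against Gln added differed between 12 h and 24 h for 4 of the 10 genes, against 20.1% of all genes tested. Calls are by limma's test of the difference between the times. All 4 were lower at 24 h, as were 10.5% of all genes. The log2 difference was -0.20 for XRCC6 (adjusted p = 0.00112), -0.13 for XRCC5 (adjusted p = 0.0178), -0.18 for XRCC1 (adjusted p = 0.0426) and -0.10 for PRKDC (adjusted p = 0.0433). The XRCC6 difference kept its call under all 19 alternatives. That of XRCC5 lost it with only the groups compared (adjusted p = 0.0556) and without 12 h replicate 1 (adjusted p = 0.0656). Those of XRCC1 and PRKDC lost it under 12 of 19 each.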

How the results depend on the processing

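Of 570 values of the 10 genes under alternatives, 537 stayed on their side of the threshold, 30 lost a call and 3 gained one. No value called in the main fit or in the alternative changed direction. Some values called in neither did, such as NHEJ1 at 24 h against Gln added, which ranged from -0.04 to 0.05. The calls of PARP1, PARP2, XRCC4, LIG4, XRCC5, XRCC6 and PRKDC against Gln added held under every alternative run. LIG3 at 12 h lost its call with no filter (adjusted p = 0.0560), after rescaling (adjusted p = 0.0645) and without either library named in the report. The number of the 10 genes called between 12 h and 24 h was 4, and became 2 with FPKM rescaled to the same total, 1 with only the groups compared, and 1 to 3 when a library was left out. For the pathway lists this count of 13 ranged from 6 to 15 when a library was left out. The cause was not tested. Deviations of same-numbered libraries from their group means correlated by -0.03 to 0.06 between Gln added and either time, and by 0.25, -0.14 and 0.28 for replicates 1, 2 and 3 between 12 h and 24 h. For differently numbered libraries of 12 h and 24 h the correlations ran from -0.47 (12 h replicate 3 with 24 h replicate 1) to 0.30 (12 h replicate 3 with 24 h replicate 2). Not every same-numbered pair was thus over 0.1, the labels tie the numbers to no batch or culture, and the numbers were not taken as a pairing. With the replicate block 8, 7 and 3 of the 10 genes were called at 12 h, at 24 h and between the times. In the main fit 60.2%, 64.7% and 20.1% of all genes were called. Shares of all genes under each alternative are not given here. With the block XRCC1 lost its call between the times (adjusted p = 0.0567). None of 126 partner ratios under an alternative moved by as much as the pooled SD of the groups compared. Most of these alternatives left out a library, which with 3 libraries per group cannot shift a mean by that much. Their outcome was fixed in advance and is no check. Only a pseudocount of 0.1 added to both partners could have moved a ratio. Among the 10 genes, depth limits XRCC4 and LIG4 most, at 145 to 412 fragments per library.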
